A study of Mus musculus with 24 samples.

Results

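Nuclear receptors are transcription factors, most of them with a zinc-finger DNA-binding domain. Most also have a pocket for a small lipophilic ligand such as a steroid, thyroid hormone, a retinoid, a fatty acid or a bile acid. The presence of the homeobox factor Cdx2 at 41 nuclear receptor genes was examined in mouse colon organoids, out of 21938 protein-coding genes of the GENCODE vM21 annotation. The 41 genes were listed by name. A Cdx2 peak was assigned to a gene when its summit lay within the gene body or 10 kb to either side. Of the 41 genes, 22 had a peak in at least 1 library, 7 had one in all 12 libraries and 19 had none. Over all protein-coding genes, 54.8% had a peak in at least 1 library and 6.77% in all 12.

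Many nuclear receptors bind DNA as a pair with a retinoid X receptor, at hexamers related to AGGTCA, and exchange corepressors for coactivators when the ligand binds. In the colon the mineralocorticoid and glucocorticoid receptors (Nr3c2 and Nr3c1) control sodium absorption, Pparg is a fatty acid sensor of differentiated colonocytes, and the bile acid receptor FXR (Nr1h4) and LRH-1 (Nr5a2) link bile acids and phospholipids to crypt renewal. Cdx2 is the homeobox factor that sets and keeps intestinal identity. A peak records where Cdx2 was recovered on chromatin and gives no level of the receptor's RNA or protein.

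Organoid lines were made from both ends of the colon, proximal and distal, of 3 female mice, 8 weeks old, and every group carried 1 Cre-inducible BRAF V600E allele and 1 tdTomato reporter allele. Whether Cre had been delivered to these organoids is not given in the sources used here. After 4 months in WENR-plus medium, which holds Wnt3a, EGF, Noggin and R-spondin, the organoids either stayed in it or, for WENR-minus, had 2 days in it after plating and then 3 days without these factors. Cdx2 was mapped by ChIPmentation, in which a transposase adds the sequencing adapters to the immunoprecipitated chromatin, with 3 libraries in each of the 4 groups of site and medium. DNA came from 6 wells of organoids, and the replicate number is the only link between libraries that the labels give. The 6 libraries of a site thus came from organoids of 3 mice, each grown in both media, and are not 6 separate animals. P-values of 6 against 6 libraries may therefore be too small. The study reports the mouse of origin as the largest source of variation in Cdx2 binding. A mouse effect common to both sides of a comparison would make p-values that leave it out too large. The direction of the error is thus not known. The 12 matched input libraries of the series were not analysed here.

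The 12 peak lists held 206283 peaks on the numbered chromosomes, X and Y, with 11409 to 42192 peaks in a proximal list and 5608 to 21040 in a distal list. The read totals that the study states for its libraries are not in the lists and were not used here, so the read depth behind a single peak is not given and libraries are compared by list length. The fold enrichment of a peak is the ratio of the pileup at its summit to that in the local input background. Because this ratio depends on the library, it is given below as a fold percentile, the share of the peaks of the same list that had the same or a lower fold. All 8 colon epithelium markers on the list (Vil1, Krt20, Car1, Cdh17, Lgals4, Cdx1, Epcam and Muc13) had a peak, 5 of them in all 12 libraries, which describes binding at these genes and not their expression.

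Overlapping peaks of the 12 lists were merged into 61454 regions. Sequence is shown first for the regions that the comparisons turn on. For 6 of the 7 receptor genes with a peak in every library, the 101 bases around the summit of the region called in most libraries are given, since these are the most repeatable Cdx2 positions at these genes. They were read from the forward strand of the RefSeq GRCm38.p6 sequence, the assembly of mm10, and capitals mark a Cdx2 motif, spelled as TTTATGA or TTTATGG or TTTATTA or TTTATTG on either strand.
Thrb, intron, chr14:17687072-17687172: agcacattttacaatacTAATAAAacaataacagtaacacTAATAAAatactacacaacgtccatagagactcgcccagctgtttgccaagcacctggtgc
Pparg, intron, chr6:115466817-115466917: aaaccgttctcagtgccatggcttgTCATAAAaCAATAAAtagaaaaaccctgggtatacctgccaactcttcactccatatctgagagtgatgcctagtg
Nr3c2, intron, chr8:76913329-76913429: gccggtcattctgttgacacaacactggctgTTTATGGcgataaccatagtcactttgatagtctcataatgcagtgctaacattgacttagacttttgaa
Rarb, intron, chr14:16755339-16755439: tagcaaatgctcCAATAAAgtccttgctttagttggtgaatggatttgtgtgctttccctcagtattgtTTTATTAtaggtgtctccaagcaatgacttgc
Nr1h4, intron, chr10:89483833-89483933: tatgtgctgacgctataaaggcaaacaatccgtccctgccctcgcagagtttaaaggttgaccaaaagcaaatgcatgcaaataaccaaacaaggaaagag
Nr6a1, near a start site, chr2:38925310-38925410: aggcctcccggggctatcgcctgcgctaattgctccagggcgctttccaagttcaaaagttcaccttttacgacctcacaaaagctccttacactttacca

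The Thrb, Pparg and Rarb windows each held 2 motifs and the Nr3c2 window held 1. No match to these letters lay in the Nr1h4 and Nr6a1 windows, although both regions were called in all 12 libraries. These windows are centred on the median summit. Around the summits of the single libraries, a motif lay within 50 bp in 4 of 12 at the Nr1h4 region and in 3 of 12 at the Nr6a1 region. A further set of 3 windows is shown as examples of regions whose presence differed by at least 5 libraries between the colon sites, with the first pair called in 6 of 6 proximal and 0 of 6 distal libraries and the last in 1 proximal and 6 distal libraries.
Rarb, intron, chr14:16604873-16604973: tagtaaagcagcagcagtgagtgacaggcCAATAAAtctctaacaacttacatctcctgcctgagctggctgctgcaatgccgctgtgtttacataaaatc
Nr1h4, intron, chr10:89512724-89512824: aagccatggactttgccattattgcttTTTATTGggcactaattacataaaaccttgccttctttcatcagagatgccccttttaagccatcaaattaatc
Nr3c2, intron, chr8:77046945-77047045: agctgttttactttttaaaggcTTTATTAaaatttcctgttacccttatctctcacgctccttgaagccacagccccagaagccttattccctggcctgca

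Each of these 3 windows held 1 motif, with its centre 18 to 25 bp from the summit. None of the 9 printed windows overlapped an exon of a protein-coding gene. The Nr1h4 window at chr10:89512724-89512824 also held the HNF4 motif CAAAGTCCA on the other strand, and the Nr3c2 window at chr8:77046945-77047045 held GATAAG.

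The receptor genes are long, with a median window of 67.1 kb against 37.4 kb over all protein-coding genes, and a longer window has more room for a peak. Among the 17 receptor genes with a window under 50 kb, 5 had a peak and 0 had one in all 12 libraries, against 42.3% and 3.31% of all genes of that size. Of the 10 with a window of 50 to 100 kb, 6 had a peak and 1 had one in every library, against 69.2% and 8.49%. Of the 14 longer than 100 kb, 11 had a peak and 6 had one in every library, against 90.4% and 19.8%. The genes present in every library were thus mostly long ones, and in each size class the receptor genes with any peak were a smaller share than that of all genes. Per 100 kb of window the receptor genes held 2.28 regions and all protein-coding genes 2.41.

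**Figure D1:**
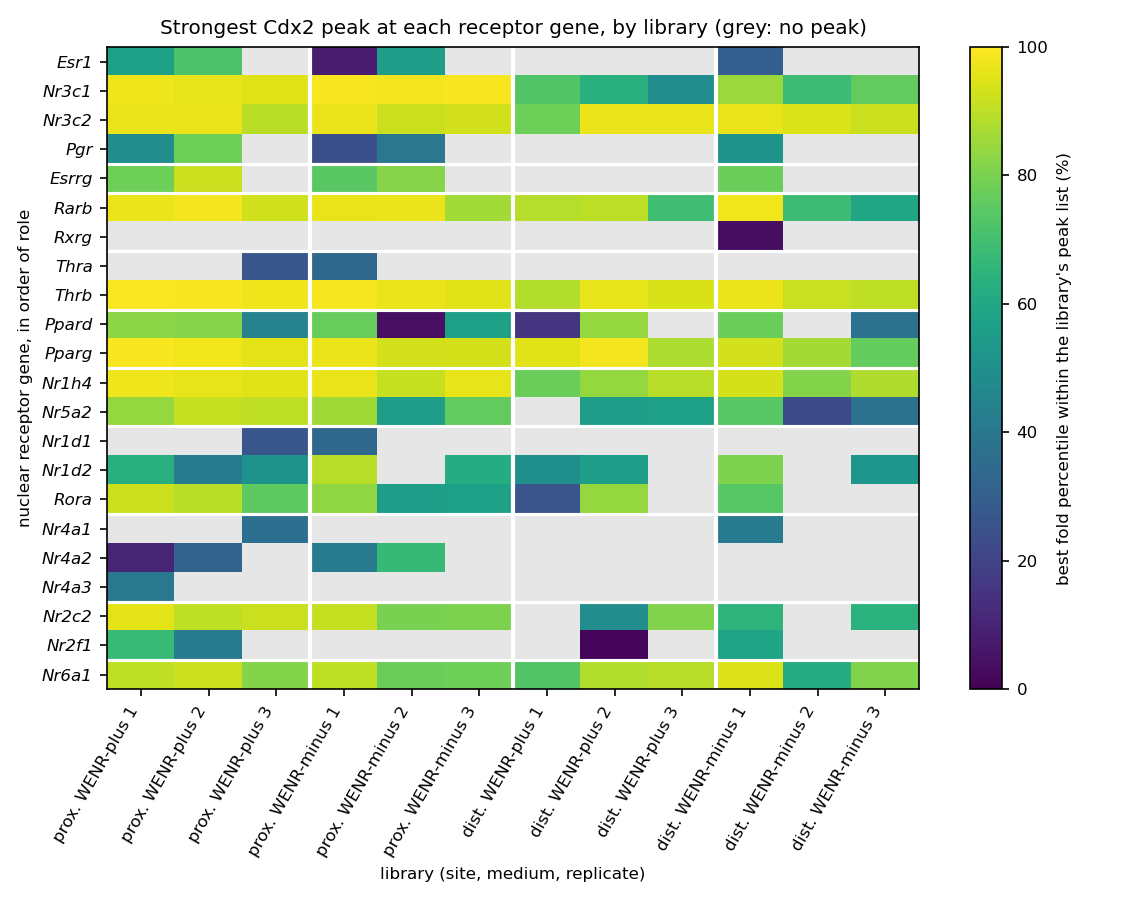
Best fold percentile (%, colour) of the Cdx2 peaks at each of the 22 receptor genes with a peak (rows, ordered by role) in each of the 12 libraries (columns, by site, medium and replicate), with grey for no peak. Thrb, Nr3c2, Pparg, Rarb, Nr1h4, Nr6a1 and Nr3c1 were filled in every column, and the Nr3c1 row ran from 95.1 to 99.1 in proximal and from 49.2 to 85.0 in distal libraries.

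Steroid receptors came with peaks at 4 of 5 genes. Nr3c2, the mineralocorticoid receptor that responds to aldosterone, held 20 regions, the most of any receptor gene, in a window of 366 kb. Its best fold percentile in proximal organoids was 97.1, 97.1 and 89.8 in WENR-plus and 97.0, 92.1 and 93.3 in WENR-minus. In distal organoids it was 77.9, 97.1 and 96.5 in WENR-plus and 96.6, 94.5 and 92.0 in WENR-minus. The sites overlapped over nearly the whole range, with the distal WENR-plus replicate 1 as the lowest library. Of its regions, 3 were called in all 12 libraries, at 11.5, 13.9 and 271 kb from the 5′ end of the gene.

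Nr3c1, the glucocorticoid receptor, held 9 regions and was the only one of the 7 genes present in every library whose sites did not overlap. Its best fold percentile in proximal organoids was 97.6, 96.4 and 95.1 in WENR-plus and 99.1, 98.2 and 99.0 in WENR-minus. In distal organoids it was 72.9, 63.4 and 49.2 in WENR-plus and 85.0, 68.6 and 75.9 in WENR-minus. The lowest proximal value lay above the highest distal value. In 5 of 6 proximal libraries the best peak lay in an intronic region at chr18:39479821-39480752, 39.0 kb from the 5′ end and 6.85 kb from a start site of the gene, which was called in 6 proximal and 2 distal libraries. In the proximal WENR-plus replicate 2 the best peak lay 15.6 kb in. Where the region 39.0 kb in was called, its fold percentile was 93.4 to 99.1 in proximal libraries and 85.0 and 75.9 in the distal ones. A second intronic region, 54.7 kb in, was called in all 12 libraries at fold percentiles of 49.2 to 86.6.

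Esr1 and Pgr, the receptors for oestrogen and progesterone, had a peak in 4 proximal libraries and 1 distal library. Their best fold percentiles reached 72.0 and 77.8. Esrrg, an orphan receptor related to the oestrogen receptors, was present in the same 5 libraries and reached 91.8 at an intronic region 261 kb from its 5′ end. These 5 libraries had the 5 longest peak lists, of 15940 to 42192 peaks, and the part of list length in this pattern was not tested separately. Fisher's exact test gave p = 0.242 for the site difference at each of the 3 genes.

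Thrb, which encodes the thyroid hormone receptor beta, held 9 regions, of which 2 were called in every library. Its best fold percentile in proximal organoids was 99.4, 99.2 and 97.4 in WENR-plus and 98.5, 96.9 and 95.4 in WENR-minus. In distal organoids it was 88.3, 96.1 and 93.9 in WENR-plus and 97.0, 91.7 and 90.4 in WENR-minus. It was thus among the stronger peaks of all lists, with 2 distal libraries inside the proximal range. Thra, the alpha form of the receptor, shared its only 2 peaks with Nr1d1, since the windows of these neighbouring genes overlap. Each was called in 1 proximal library, at a fold percentile of 26.9 and 33.5.

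Retinoid receptors had peaks at 2 of 6 genes. Rarb, the retinoic acid receptor beta whose own transcription is induced by retinoic acid, held 14 regions over a window of 408 kb. Its best fold percentile in proximal organoids was 97.0, 98.3 and 92.6 in WENR-plus and 96.5, 97.1 and 86.3 in WENR-minus. The distal values were 88.8, 90.1 and 69.2 in WENR-plus and 97.9, 68.7 and 58.7 in WENR-minus. The sites overlapped, with 3 distal libraries inside the proximal range, the WENR-minus replicate 1 among them. In 8 of the 12 libraries the best peak lay in a region 4.88 kb upstream of the 5′ end, called in 6 proximal and 5 distal libraries. Rxrg, a partner receptor of limited tissue range, had a peak in 1 distal library at a fold percentile of 3.52.

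Among the peroxisome proliferator-activated receptors, which bind fatty acids, 2 of 3 genes had peaks. Pparg held 13 regions, and the strongest lay in an intron at chr6:115466377-115467479, 106 kb from the 5′ end. The best fold percentile of Pparg in proximal organoids was 98.9, 98.0 and 95.8 in WENR-plus and 97.0, 93.3 and 93.7 in WENR-minus. Distal organoids gave 95.6, 98.1 and 87.8 in WENR-plus and 93.0, 86.4 and 76.5 in WENR-minus. The sites overlapped, and so did the media within each site. Ppard, the broadly expressed member, was present in 10 libraries, mainly through an intronic region 51.1 kb in whose fold percentile ran from 3.97 to 84.2.

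The sterol, bile acid and xenobiotic receptors had peaks at 2 of 6 genes. Nr1h4, which encodes the bile acid sensor FXR, held 8 regions in 99.4 kb. Its best fold percentile in proximal organoids was 97.3, 96.2 and 95.1 in WENR-plus and 96.7, 91.4 and 96.1 in WENR-minus. The distal values were 77.4, 84.2 and 89.2 in WENR-plus and 93.6, 81.4 and 88.2 in WENR-minus. Of the distal libraries, only the WENR-minus replicate 1 reached the proximal range. Nr5a2, which encodes the crypt and steroidogenic regulator LRH-1, was present in 6 proximal and 5 distal libraries. Its median best fold percentile was 84.9 in proximal and 46.7 in distal libraries, and its most frequent region, in 11 libraries, lay 148 bp upstream of the 5′ end, where the summit window held GATAAG and no Cdx2 motif.

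The REV-ERB receptors (Nr1d1 and Nr1d2) repress and the ROR receptors (Rora and Rorb) activate shared clock targets, and 3 of these 4 genes had peaks. Nr1d2 was present in 5 proximal and 4 distal libraries with best fold percentiles up to 89.3, at a region downstream of the gene (chr14:18193683-18194520) that was called in 6 proximal and 2 distal libraries. This count of libraries for the region exceeds that of the gene because a library has a region when its peak overlaps it, while a gene is counted by the summit. Rora, in the longest window at 754 kb, was present in 6 proximal and 3 distal libraries and reached 92.3 at an intronic region 472 kb in. Its 3 distal values were 26.5, 84.2 and 74.1.

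The NR4A receptors are immediate-early genes without a known ligand requirement, and all 3 had a peak in at least 1 library. Nr4a2 (NURR1) had a peak in 4 proximal and 0 distal libraries, at 10.4 and 31.8 in WENR-plus and at 41.6 and 66.9 in WENR-minus (Fisher's exact test, p = 0.0606). The 4 libraries were among those with the longest lists, of 15940 to 42192 peaks, and the part of list length was not tested separately. Nr4a1 (NUR77) was present in 2 libraries and Nr4a3 (NOR1) in 1. Apart from the Nr4a2 peak at 66.9, the NR4A peaks had fold percentiles of 41.6 or lower. None of their 4 regions held a Cdx2 motif at the median summit. At the Nr4a2 region chr2:57118056-57118569 a motif lay within 50 bp of the summit in 1 of 3 libraries.

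Of the NR2 orphan receptors, 2 of 7 had peaks. Nr2c2 (TR4), a receptor of metabolic genes, was present in 6 proximal and 4 distal libraries. Its proximal best fold percentiles were 79.8 to 96.0 and its distal ones, where present, 48.9 to 81.0, at an intronic region 13.5 kb in. Nr2f1 (COUP-TFI) was present in 2 libraries of each site. Nr6a1, the germ cell nuclear factor, was present in all 12 libraries with best fold percentiles of 77.4 to 91.8 in proximal and 61.9 to 94.7 in distal organoids. Its constant region (chr2:38924933-38925761) lay 2.33 kb from the 5′ end and 0.857 kb from an annotated start site.

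The 19 genes without a peak in any library were Esr2, Esrra, Esrrb, Rara, Rarg, Rxra, Rxrb, Ppara, Nr0b2, Nr1h2, Nr1h3, Nr1i3, Rorb, Nr2c1, Nr2e1, Nr2e3, Nr2f2, Nr2f6 and Nr5a1. They include the ubiquitous retinoid partners RXR alpha and beta (Rxra and Rxrb), both liver X receptors that sense oxysterols (Nr1h2 and Nr1h3), and the FXR target SHP (Nr0b2). Nr5a1, the adrenal and gonadal counterpart of LRH-1, lies next to Nr6a1, and the overlap of their windows held 0 peaks. A gene without a peak is one where no peak passed the q-value limit of the authors, and binding below that limit cannot be told apart from none.

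Within the windows of the receptor genes lay 124 regions, which made 126 pairs of gene and region. Of these pairs, 95 were in introns, 16 within 3 kb of a start site of the gene, 7 downstream, 4 upstream and 4 in exons. Some lay nearer to the start site of a neighbour, as at the 3′ ends of Rora (next to Ice2) and Rarb (next to Top2b). Intronic regions dominated even at the genes present in every library. Of the 124 regions, 17 (13.7%) were within 3 kb of the start of any protein-coding gene, against 20.6% of the regions in all protein-coding windows. Regions called in every library numbered 10 (8.06%), against 4.07% in all protein-coding windows. Regions called in only 1 library numbered 38 (30.6%), against 40.1%.

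**Figure D2:**
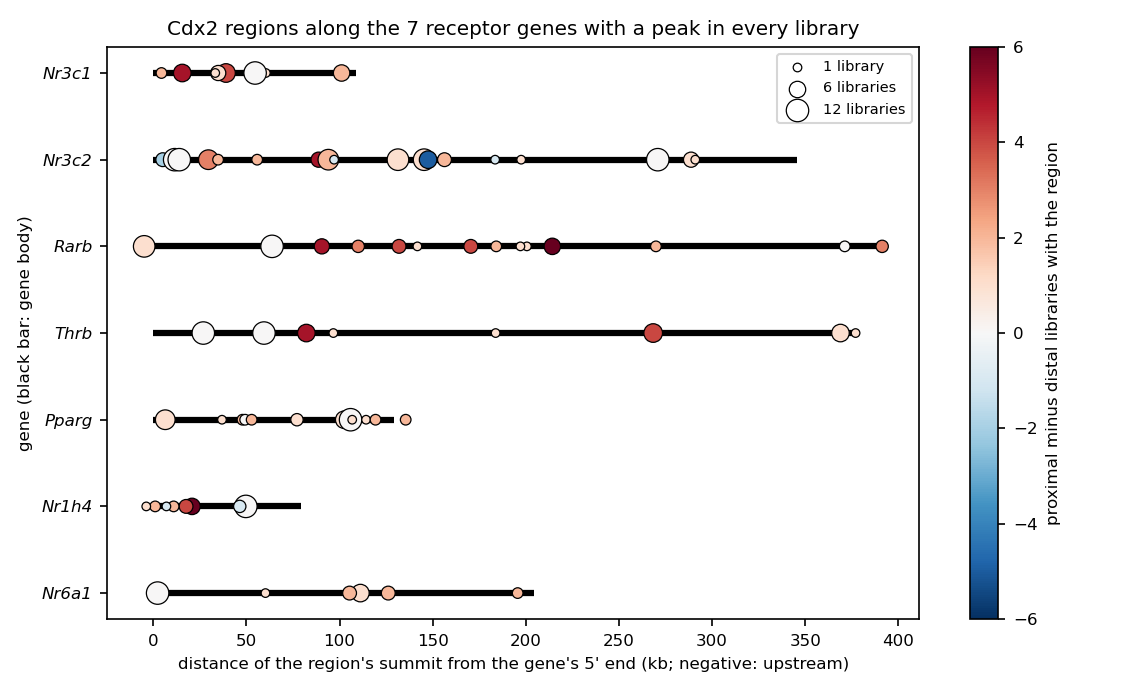
Distance (kb) of each Cdx2 region from the 5′ end of the gene for the 7 receptor genes with a peak in every library, with the gene body as a black bar, marker size for the number of libraries and colour for proximal minus distal libraries. The regions called in 12 libraries sit inside the gene bodies, and the Nr3c2 region at 148 kb, in 1 proximal and 6 distal libraries, is the darkest blue marker.

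The Cdx2 motif lay within 50 bp of the summit in 74 of the 124 regions (59.7%). It was found in 57.7% of the regions in all protein-coding windows and in 60.4% of all 61454 regions. In windows of the same length 1000 bp from the summits of the receptor regions the share was 9.27%. Among the receptor regions called in every library it was 8 of 10 (80.0%), against 73.6% of all regions called in every library, and among those called in 1 library it was 16 of 38 (42.1%), against 51.7%. The share with the motif was higher at regions called in every library than at those called in 1, among receptor regions and over all regions. The receptor hexamer AGGTCA (either strand) was found at 5 receptor regions (4.03%, against 7.74% of all regions), among them the Thrb region at chr14:17717880-17720047, called in every library, and the 39.0 kb region of Nr3c1. GATAAG was found at 4 (3.23%, against 4.34%). The HNF4 motif CAAAGTCCA was found at 2 (1.61%, against 0.446%), the Nr3c2 region 11.5 kb in, called in every library, and the Nr1h4 region 20.8 kb in.

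Per library, 12 to 18 of the 41 receptor genes had a peak in proximal organoids and 8 to 18 in distal organoids. The mean was 15.8 ± 2.32 (SD, n = 6) in proximal and 11.5 ± 3.62 (SD, n = 6) in distal libraries. All protein-coding genes moved in the same direction, with a peak at 22.0% to 45.1% of genes in proximal and 13.0% to 29.4% in distal libraries. The density of peaks in the receptor windows divided by that in all protein-coding windows was 1.20 ± 0.197 (SD, n = 6) in proximal and 1.22 ± 0.195 (SD, n = 6) in distal libraries, a difference smaller than the spread. When every list was reduced to its 5608 strongest peaks, the site difference in the mean number of receptor genes was 1.33 in place of 4.33, and 13 of 41 genes had a peak in at least 1 library. The number of receptor genes with a peak thus moved with list length, and the site and the yield of the libraries cannot be told apart in it.

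**Figure D3:**
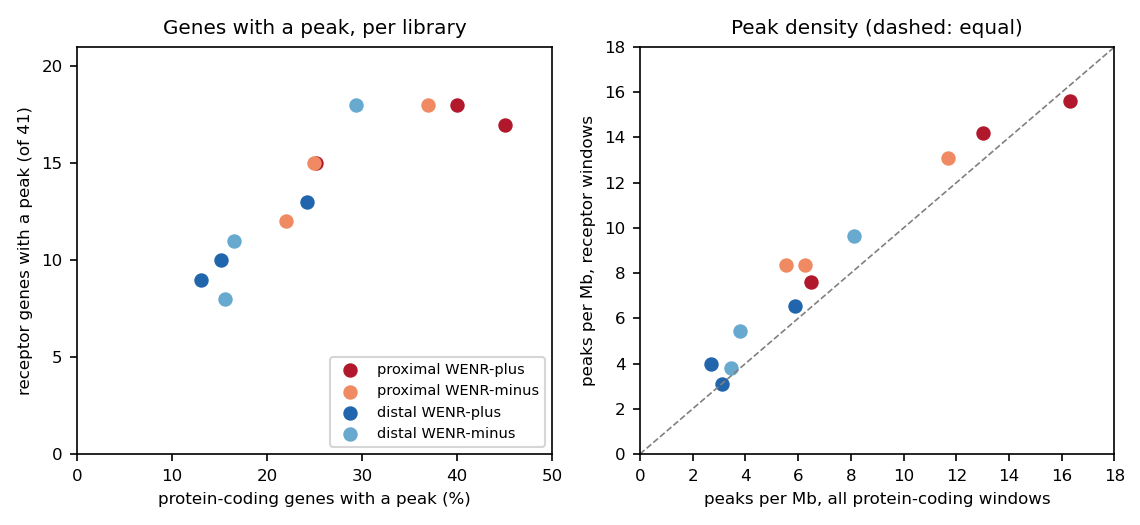
Left, number of the 41 receptor genes with a peak against the percentage of all protein-coding genes with a peak, and right, peaks per Mb in receptor windows against peaks per Mb in all protein-coding windows, with 1 point for each of the 12 libraries, coloured by site and medium, and a dashed line of equality. Receptor genes with a peak ran from 8 to 18 as the share of all genes ran from 13.0% to 45.1%, and the points on the right lay from 0.960 to 1.51 times the line.

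Proximal and distal organoids were then compared gene by gene, over both media, to ask at which receptor genes Cdx2 presence depended on the colon site. Fisher's exact test on the number of libraries with a peak called 0 of 9773 genes after Benjamini-Hochberg adjustment (0%), with 4.58% of genes more frequent in proximal and 0.113% more frequent in distal libraries at an unadjusted p under 0.05. Of the 22 receptor genes with a peak, 20 were in at least 2 libraries and entered the test, and 0 of them had an unadjusted p under 0.05. Nr4a2 had the lowest p among the receptor genes, with its peaks in libraries that had long lists. With 12 libraries split 6 and 6, the smallest p this test allows is 0.00216.

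The exact permutation test of the best fold percentile (two-sided, 0 for a library without a peak) called 486 genes as higher in proximal organoids (4.97%) and 11 as higher in distal organoids, and among the receptor genes it called Nr3c1. A percentile depends on list length, since a given rank is a higher percentile in a longer list, and the proximal lists were the longer ones. The difference at Nr3c1 was 28.4 percentile points (exact permutation test, p = 0.00216, adjusted p = 0.0426), with 6 of 6 proximal libraries above 6 of 6 distal ones. In limma on the same percentiles, which called 937 genes as higher in proximal (9.59%) and 16 as higher in distal organoids, Nr3c1 was again the receptor gene that passed (28.4, SE 5.54, adjusted p = 0.00864). The permutation call did not pass at equal list length, where the difference was 40.6 with an adjusted p of 0.0528. The percentiles there were 72.8 to 97.9 in proximal and 12.8 to 66.1 in distal libraries. The sites were thus again fully separated, at the smallest p this exact permutation test allows, 0.00216. No gene could have a lower p in that setting, so Nr3c1 could not pass there either. When permuted within replicate numbers (a replicate block) the difference of 28.4 had an adjusted p of 0.0972. With its sites fully separated, Nr3c1 was already at the smallest p this blocked permutation allows, 0.00926, so it could not pass there. Limma with the block called 1 receptor gene. Without the libraries of replicate 1, 2 or 3 the difference was 32.9, 26.9 and 25.3 with adjusted p of 0.264, 0.217 and 0.208. There the raw p of 0.0286 was the smallest that 4 libraries against 4 allow. With peaks limited to a −log10 q of at least 5 the difference was 39.1, with an adjusted p of 0.0346. The next receptor genes did not pass the adjusted threshold in the permutation test. They were Nr1h4 (9.79 points, adjusted p = 0.0616), Nr2c2 (45.1 points, adjusted p = 0.0766), Nr5a2 (39.4 points, adjusted p = 0.0924) and Thrb (4.92 points, adjusted p = 0.110).

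Presence was also compared region by region, since a gene with many regions can hold a peak in every library while its regions differ. Of the 124 receptor regions, 86 were called in at least 2 libraries. Fisher's exact test gave an unadjusted p under 0.05 for 7 of the 86 as more frequent in proximal libraries, against 4.96% of 35518 regions in all, and for 1 as more frequent in distal libraries, against 0.282%. After adjustment over all regions it called 0, and the smallest adjusted p was 0.114. Complete separation, with the region called in 6 proximal and 0 distal libraries, was seen at 2 of the 86, against 1.80% of all regions. Of the 86, 32 were called only in proximal libraries and 0 only in distal ones, against 34.4% and 2.04% of all regions.

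At Rarb, the region at chr14:16604611-16605237 lay in an intron 214 kb from the 5′ end and was called in 6 proximal and 0 distal libraries (Fisher's exact test, p = 0.00216, adjusted p = 0.114). Its fold percentile was 91.0, 90.5 and 92.6 in WENR-plus and 93.8, 83.8 and 86.3 in WENR-minus, among the stronger peaks of each proximal list. It was still called in 6 and 0 libraries when every list was cut to 5608 peaks, and also at a −log10 q of at least 5. A second Rarb region, 90.5 kb in, was called in 5 proximal and 0 distal libraries (p = 0.0152, Fisher's exact test) at fold percentiles of 60.4 to 82.5, and in 1 and 0 at equal list length.

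The Nr1h4 region at chr10:89512411-89513014, in an intron 20.8 kb from the 5′ end, was called in 6 proximal and 0 distal libraries (Fisher's exact test, p = 0.00216). Its fold percentile was 82.5, 87.8 and 56.7 in WENR-plus and 83.4, 74.6 and 81.8 in WENR-minus. At equal list length it was called in 4 and 0. The other intronic region of Nr1h4, 49.7 kb in, was by contrast called in every library of both sites.

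Nr3c2 held regions of both directions. The region at chr8:77046784-77047258, 148 kb from the 5′ end, was the only receptor region more frequent in distal libraries at an unadjusted p under 0.05, with 1 proximal and 6 distal libraries (Fisher's exact test, p = 0.0152). In distal organoids its fold percentile was 51.4, 64.6 and 5.90 in WENR-plus and 50.4, 44.4 and 58.7 in WENR-minus, and the 1 proximal library had it at 11.1. Although distal lists were shorter, it was called in 0 proximal and 5 distal libraries at equal list length. The region at chr8:76987957-76988402, 88.8 kb in, went the other way, with 5 proximal and 0 distal libraries (p = 0.0152, Fisher's exact test), at fold percentiles of 2.79 to 83.7, and it was in 0 libraries of either site at equal list length.

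The remaining 3 regions lay at Nr3c1, Thrb and Nr5a2. At Nr3c1 the region 15.6 kb in (chr18:39503500-39504325) was called in 6 proximal libraries, at 75.6 to 96.4, and in 1 distal library, at 5.08, and the counts were again 6 and 1 at equal list length. At Thrb the region 82.2 kb in was called in 6 proximal and 1 distal library, and in 4 and 0 at equal list length. At Nr5a2 a region 6.52 kb upstream of the 5′ end was called in 5 proximal and 0 distal libraries, and in 0 of either site at equal list length, with no Cdx2 motif at its summit. Each had p = 0.0152 by Fisher's exact test. The libraries of each replicate number were also left out in turn. For at least 1 of the 3 omissions, 6 of the 8 regions had p = 0.143 by Fisher's exact test. The Rarb region 214 kb in and the Nr1h4 region 20.8 kb in had p = 0.0286 each time by Fisher's exact test. These outcomes are fixed by the library counts above and are no separate check of the regions. Any omission leaves a region called in 6 and 0 libraries at 4 and 0. For the other 6 regions, at least 1 omission must leave 3 and 0, 4 and 1 or 1 and 4.

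**Figure D4:**
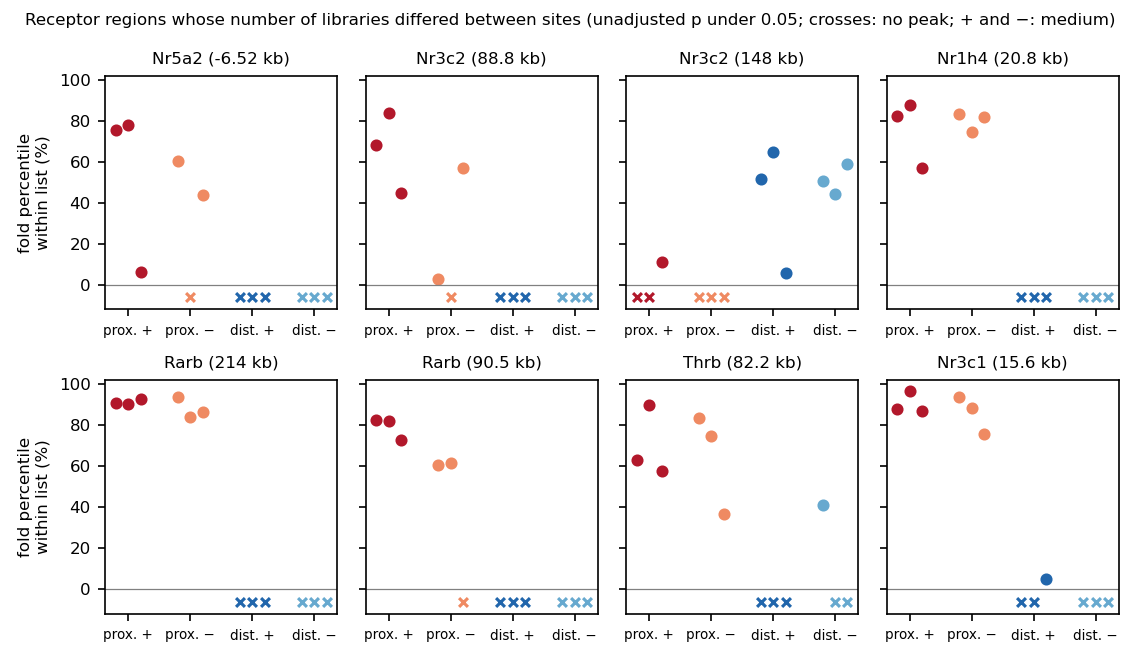
Fold percentile within the list (%) of the 8 receptor regions with an unadjusted p under 0.05 for the site difference, with 1 marker for each library by site and medium (+ WENR-plus, − WENR-minus) and a cross below the line for a library without the region. The Rarb region at 214 kb and the Nr1h4 region at 20.8 kb have 6 proximal points and 6 distal crosses, and the Nr3c2 region at 148 kb has 6 distal points and 1 proximal point.

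The strength of binding was compared at the 2079 regions common to the 12 lists, so that no library lacked a value, with limma on the log2 fold enrichment after centring each library on its median over these regions. By site, 201 of the 2079 regions were higher in proximal (9.67%) and 160 higher in distal organoids (7.70%), and of the 10 receptor regions 1 was called. This region lay at Thrb (chr14:17686377-17687602, intron, 26.9 kb from the 5′ end and 26.2 kb from the nearest start site of the gene). Its fold enrichment in proximal organoids was 24.7, 24.8 and 20.7 in WENR-plus and 20.0, 16.6 and 14.1 in WENR-minus. In distal organoids it was 9.30, 11.5 and 9.81 in WENR-plus and 12.9, 9.94 and 10.5 in WENR-minus, so the lowest proximal library exceeded the highest distal one. After centring, the log2 level was 0.79 ± 0.18 (SD, n = 6) in proximal and 0.28 ± 0.11 (SD, n = 6) in distal libraries. The log2 difference was 0.51 (SE 0.14, 95% interval 0.21 to 0.81, limma adjusted p = 0.0191), or 1.43-fold. The call was lost on the scale of fold percentiles (6.75 points, adjusted p = 0.144), where the counts over all regions were 27 higher in proximal and 2 in distal organoids, after quantile normalisation (0.39, adjusted p = 0.0809), and without the libraries of replicate 1, 2 or 3 (0.51, 0.48 and 0.58, with adjusted p of 0.123, 0.169 and 0.0567). In these omissions the unadjusted limma p was 0.0184, 0.0295 and 0.00665. Each omission left fewer libraries and another set of tested regions. A call lost there therefore does not show dependence on 1 replicate number.

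The other constant Thrb region, 59.4 kb in, went in the opposite direction and did not pass (log2 difference −0.41, 95% interval −0.83 to −0.00, limma adjusted p = 0.167). Its 95% interval did not overlap that of the region 26.9 kb in. The difference between the regions itself was not tested. At Nr6a1 the log2 difference was −0.30 (95% interval −0.61 to 0.01) and at Nr1h4 it was 0.30 (95% interval −0.03 to 0.62). At the intronic Nr3c1 region 54.7 kb in it was −0.25 (95% interval −0.56 to 0.05). The Nr3c2 regions 11.5, 13.9 and 271 kb in had differences of −0.21, −0.09 and −0.21, and their intervals included 0. The Rarb region 63.8 kb in, at 0.09 on the log2 scale, passed only on the scale of fold percentiles (25.8 points, limma adjusted p = 0.0441).

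**Figure D5:**
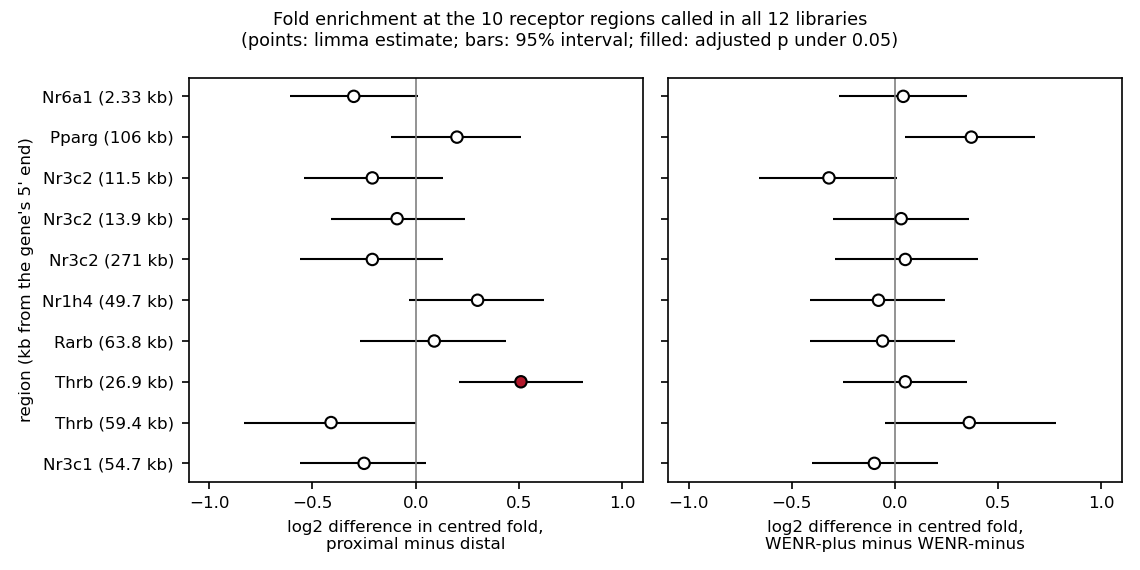
Log2 difference in centred fold enrichment at the 10 receptor regions called in all 12 libraries (rows, with the distance from the 5′ end of the gene), for proximal minus distal on the left and WENR-plus minus WENR-minus on the right, with limma estimates as points and 95% intervals as bars. The Thrb region at 26.9 kb, at 0.51 in the left panel, is the filled point, which marks an adjusted p under 0.05, and no point is filled on the right.

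The media were compared over both sites, to ask whether 3 days without the niche factors altered Cdx2 at the receptor genes. The mean number of receptor genes with a peak was 13.7 ± 3.67 (SD, n = 6) in WENR-plus and 13.7 ± 4.03 (SD, n = 6) in WENR-minus libraries. By Fisher's exact test 0 of the 20 receptor genes tested had an unadjusted p under 0.05, against 0.164% of all genes, and after adjustment 0 of 9773 genes passed, while limma on the best fold percentile called 1 gene, not a receptor gene. The widest difference among the receptor genes was that of Nr2f1, with 3 WENR-plus libraries and 1 WENR-minus library (Fisher's exact test, p = 0.545). Region by region, 0 of the 86 receptor regions had an unadjusted p under 0.05, against 0.189% of all regions.

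At the regions called in every library, limma called 23 regions (1.11%) by medium and 0 of the 10 receptor regions, and with a replicate block 71 and again 0. The Pparg region 106 kb in had the largest difference, 0.37 on the log2 scale, higher in WENR-plus (95% interval 0.05 to 0.68, unadjusted p = 0.0242, adjusted p = 0.252 in limma). Its centred log2 level was 0.58 ± 0.18 (SD, n = 6) in WENR-plus and 0.21 ± 0.23 (SD, n = 6) in WENR-minus libraries. The Thrb region 59.4 kb in followed at 0.36 (95% interval −0.05 to 0.78) and the Nr3c2 region 11.5 kb in at −0.32 (95% interval −0.66 to 0.01). At the other 7 regions the difference lay between −0.10 and 0.05. The interaction of site and medium called 0 of 2079 regions in limma, with 35 positive and 53 negative at an unadjusted p under 0.05. Within 1 site, 3 libraries against 3 cannot go below p = 0.1 in an exact test.

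The other genes of the receptor pathways were read, as counts, from lists chosen with earlier results of these data known. Over all protein-coding genes, 54.8% had a peak and 6.77% had one in all 12 libraries. Among those with a window over 100 kb the shares were 90.4% and 19.8%. Receptor coregulators are the proteins that receptors recruit to activate or repress transcription, and most of the 16 listed had a window over 100 kb. Of these 16, 14 had a peak and 3 had one in all 12 libraries. These 3 were Nrip1, a ligand-dependent corepressor, at a median best fold percentile of 86.8, the coactivator Ncoa3 at 86.6, and Ppargc1b, a coactivator of mitochondrial genes, at 83.8. Med1, the Mediator subunit that receptors contact, had a peak in 6 proximal and 1 distal library (Fisher's exact test, p = 0.0152, unadjusted). It was the only coregulator with an unadjusted p under 0.05, a threshold that 4.58% of all tested genes passed with more proximal libraries. Ncoa2 (6 and 2 libraries) and Lcor (5 and 1) differed by 4 libraries between sites, and Carm1 was called in 3 WENR-plus libraries and no WENR-minus library.

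Of 16 genes of retinoid supply and clearance, 8 had a peak and 3 had one in all 12 libraries. They were Aldh1a1, which makes retinoic acid, at a median best fold percentile of 98.7, and the retinal reductase Dhrs3 and the retinol dehydrogenase Dhrs9 at 97.6 and 95.7. The retinoic acid synthase gene Aldh1a2 had a peak in 6 proximal and 0 distal libraries (Fisher's exact test, p = 0.00216, unadjusted), and Rbp2, the retinol-binding protein of enterocytes, in 0 proximal and 4 distal libraries (p = 0.0606).

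Of 16 genes of steroid and thyroid hormone supply and response, 12 had a peak and 3 had one in all 12 libraries. These were Nedd4l, the ubiquitin ligase that limits the epithelial sodium channel (87.0), the hormone-induced Klf9 (78.4) and the receptor cochaperone Fkbp5 (78.3), each as a median best fold percentile. Tsc22d3, induced by glucocorticoids, and Scnn1a, the alpha subunit of the epithelial sodium channel, were each called in 3 WENR-plus and 6 WENR-minus libraries (Fisher's exact test, p = 0.182). Of 20 lipid, sterol and bile acid targets, 11 had a peak, and Slc10a2, the apical bile acid transporter, had one in all 12 libraries at a median of 98.9. Of 15 clock partners, 8 had a peak, and Clock and Npas2, which encode alternative partners of Bmal1, had one in all 12 libraries at medians of 99.5 and 99.0. Per3 was called in 5 proximal and 1 distal library, and by medium Per2 was called in 3 WENR-plus libraries and no WENR-minus library and Bhlhe40 in 5 and 2. None of the genes of these last 3 lists had an unadjusted p under 0.05 for site or medium in Fisher's exact test.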

How the data were processed

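Cdx2 ChIPmentation libraries of 4 groups of 3 were analysed from the peak lists of the authors, 1 list per library. Per the methods of the study, with versions from the submitters' processing notes, the authors used Trimmomatic 0.39 for trimming, Bowtie2 2.4.5 for alignment to mm10, SAMtools 1.13 for the removal of duplicates and MACS2 2.2.7.1 for peak calling, with the input as control and a q-value limit of 0.01. The supplement of the study names other versions of Bowtie2, SAMtools and MACS2. The deposited fold is a ratio of summit pileup to local background. The deposited −log10 p and −log10 q belong to the summit. The deposited score is 10 times the −log10 q without decimals and was used only to check the columns, and the deposited summit offset gives the position. The lowest −log10 q of a list was 2.01 to 2.12. The lists hold no read counts, and the read totals stated by the study were not used, so no counting interval is given and the read-count comparison of the study was not run.

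Positions were checked against GRCm38 (0 peaks past a chromosome end) and are 1-based. Peaks overlapping by at least 1 bp were merged into regions. Genes or regions in at least 2 libraries were tested with two-sided Fisher's exact tests and with exact permutation of the best fold percentile. Regions in all 12 libraries were tested with limma 3.58.1 (R 4.3.3) on centred log2 fold with site and medium as terms, and the interaction in a further fit. P-values were adjusted over all features by Benjamini-Hochberg. Groups came from the labels. The labels call the libraries biological replicates, and p-values measure the spread between these libraries. The steps were tested on simulated data. Python 3.11.15, NumPy 2.4.6, SciPy 1.17.1, pandas 2.3.3, pysam 0.24.0 and matplotlib 3.10.9 were used.

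The 41 genes and the pathway lists were chosen with earlier results of these data known. Described in full were genes with a peak in all 12 libraries and those differing by at least 4 of 6 libraries between sites or 3 of 6 between media. Pathway lists were given by counts, with at most 5 genes of highest median percentile and at most 3 each way past those differences. Alternatives were equal list length, a stricter −log10 q, other gene windows, other scales and overlaps, a replicate block and leaving out each replicate number.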

Additional observations from a re-analysis of the deposited data

How the results depend on the processing

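The number of receptor genes with a peak was 22, and 13 at equal list length (26.0% of all genes), 34 with 50 kb flanks (84.5%) and 11 within 3 kb of a start site (22.7%). The site difference in the mean number per library was 4.33, and 8.83 with 50 kb flanks. By site, Fisher's exact test called 0 genes, permutation of the best percentile 497, limma 953, limma with a replicate block 923 and permutation of presence within replicate numbers (the replicate block) 0. Permutation within replicate numbers cannot give a p below 0.00926. By medium, limma on the best percentile called 1. Of the regions called in all 12 libraries, limma called 361 by site, and 29 on percentiles (27 and 2 against 201 and 160), 229 after quantile normalisation, 627 with regions in at least 10 libraries, 6 where peaks covered at least 50% of a region (96 regions tested), and 137 to 389 without 1 replicate number. With the replicate block limma called 472 by site. By medium it called 23, and 0 on percentiles, 14 after quantile normalisation, 71 with the replicate block, 0 with the coverage rule, 14 at a −log10 q of at least 5, and 0 to 2 without 1 replicate number. The interaction called 0, and 2 on percentiles. Receptor regions called were 1 by site and 0 by medium, also with the replicate block. With the block and another setting together, 0 were called by site after quantile normalisation, 1 as higher in distal organoids without replicate 1, and 1 by medium with regions in at least 10 libraries. With the block, the adjusted p of Nr3c1 was 0.0972 in the permutation test. Same-numbered libraries deviated together with correlations of −0.010 to 0.570, over 0.1 in 13 of 18 pairs, namely every pair of replicates 1 and 3 and 1 of 6 pairs of replicate 2. The sources used here do not say that a number marks 1 mouse across sites, and not every pair was over 0.1, so the main fits have no block, although the numbers may in part mark shared mice. The alternatives for Nr3c1, the interaction and the 8 regions were chosen after seeing the data. Other causes of these shifts were not tested.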
